A study of Oryza sativa with 12 samples.

Results

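The quantity described here is the interaction of genotype and heat in rice seedlings, which is the heat response of a line labelled double mutant minus the heat response of the wild type, locus by locus. Each heat response is the mean of log2(FPKM + 1) at 45 °C minus the mean at 29 °C, where FPKM counts fragments per length of transcript and per size of library. A positive interaction means that a locus ended higher with heat, relative to its own control, in the libraries labelled double mutant. A locus is a member if its FPKM reached 1 in 3 or more of the 12 libraries, which makes 20305 of the 42004 loci in the table. The other 21699 loci were not tested, and 13263 of them are listed at 0 in every library. At the edge of the filter, 316 loci were kept with a third-highest FPKM between 1 and 1.1, and 304 were left out with one between 0.9 and 1.

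The wild type is ZH11, a japonica rice cultivar, and the other line is called the grp3/grp162 double mutant. Both were grown as whole seedlings in nutrient solution at 29 °C with 13 h of light and 65% humidity, and heat of 45 °C was given to seedlings aged 8 days. Each of the groups WT_29C, WT_45C, dm_29C and dm_45C holds 3 libraries of poly(A) RNA, where dm stands for the libraries labelled double mutant. The labels call both genes knocked out, but they do not give the kind of mutation or the number of independent lines. They give the length of heat as 18 h in the sample characteristics and as 42 h in the treatment protocol. The genotype field of the mutant libraries names a different second gene in each replicate, while the titles name the same line, and the titles were followed. The table marks the mutant columns with another code, so they are known as mutant only because all other columns match ZH11. Nothing says that replicates were separate cultures, so the p-values measure the spread between these libraries, which may be technical. The sources used here do not give the time of day of sampling.

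Heat stress in plants is sensed partly through unfolded proteins, which release heat stress transcription factors (Hsfs) from chaperones so that they activate genes for heat shock proteins (HSPs). Small HSPs hold unfolded proteins in a soluble state, and HSP70, HSP90 and the HSP101 disaggregase refold or recover them. GRP3 and GRP162 are glycine-rich RNA-binding proteins, small proteins with an RNA recognition motif, and relatives in Arabidopsis act on splicing and RNA stability and are controlled by the circadian clock. Comparing the heat responses of both genotypes asks which parts of the heat programme go on in the same way, and which differ, when these genes are mutated.

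GRP3 (LOC_Os03g46770) and GRP162 (LOC_Os12g43600) themselves were not removed at the RNA level. GRP3 stood at 5066, 3879 and 5489 FPKM in WT_29C and at 16274, 14427 and 16321 in WT_45C, against 4340, 1086 and 1355 in dm_29C and 17604, 10888 and 14023 in dm_45C. It rose with heat in both genotypes, by 1.72 log2 units in the wild type (limma adjusted p = 0.0273) and by 2.90 in the libraries labelled double mutant (adjusted p = 0.00139). The wild type call was lost in 7 of 24 settings, which are no filter, quantile scaling and the removal of WT_29C replicate 1 or 2 or of any WT_45C library, with an adjusted p up to 0.330. The interaction of GRP3 was 1.19 ± 0.74 (SE, n = 3 libraries per group), with a 95% interval from -0.42 to 2.80, and it did not pass (limma adjusted p = 0.974). An exact permutation of genotype labels within each temperature gave a two-sided p of 0.26, where 400 arrangements allow no p below 0.005.

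GRP162 goes against the label in replicate 1. It stood at 1121, 1002 and 1033 FPKM in WT_29C and at 2368, 1605 and 3720 in WT_45C, against 3288, 218 and 265 in dm_29C and 12466, 746 and 699 in dm_45C. At each temperature, replicates 2 and 3 labelled double mutant were thus lower than the 3 wild type libraries, and replicate 1 was higher. The interaction of GRP162 was 0.50 ± 1.54, with an interval from -2.84 to 3.83 (limma adjusted p = 0.989, exact permutation two-sided p = 0.775). It ranged from -0.87 without dm_45C replicate 1 to 1.75 without dm_29C replicate 1. The results below therefore compare libraries as labelled, and counts without both of these libraries are given where they differ.

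Both genotypes answered heat with largely the same loci. In the wild type 2701 loci rose (13.3% of those tested) and 3204 fell (15.8%) at an adjusted p under 0.05, and in the libraries labelled double mutant 3102 rose (15.3%) and 3328 fell (16.4%). Of these, 4284 loci (21.1% of those tested) passed in both in the same direction, 1972 of them up (9.71%) and 2312 down (11.4%). They make up 72.5% of the 5905 wild type calls (29.1% of those tested) and 66.6% of the 6430 calls in the libraries labelled double mutant (31.7%). Only 6 loci (0.0295%) passed in opposite directions. The estimates themselves had the same sign in the other genotype for 98.5% of wild type calls and for 97.9% of calls in the libraries labelled double mutant. Without both replicate 1 libraries labelled double mutant, 2996 loci passed in both in the same direction. In that setting 2609 loci rose and 3032 fell in the wild type, and 2130 rose and 1692 fell in the libraries labelled double mutant. In bulk seedlings, fewer cells of a type and less RNA per cell cannot be told apart.

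Across the 20305 loci the heat responses of both genotypes had a Pearson correlation of 0.858 and a Spearman correlation of 0.825. These are descriptions without a p, since the loci come from the same 12 libraries, although the responses share no library. The least-squares slope was 0.881 for the libraries labelled double mutant on the wild type and 0.836 for the wild type on them, so it was below 1 with either genotype on the horizontal axis. Among the 4284 loci that passed in both, the response was larger in the libraries labelled double mutant at 2305 (53.8%) and smaller at 1979. The median response of the loci up in both was 1.25 log2 units in the wild type and 1.31 in the libraries labelled double mutant, and that of the loci down in both was -1.18 and -1.22. Every library, used in turn with the other genotype's response as the reference, gave a correlation between 0.767 and 0.846.

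**Figure D1:**
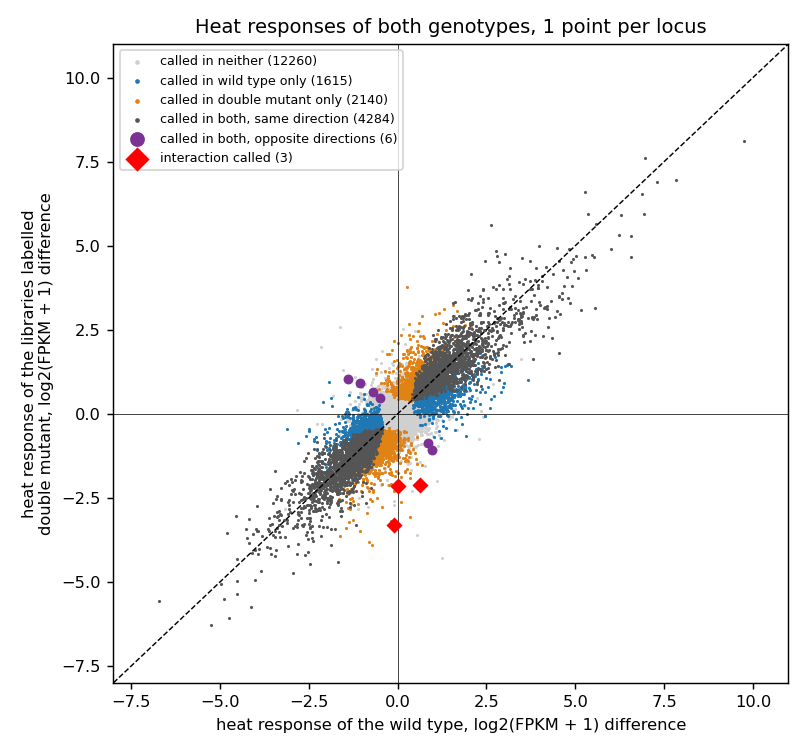
Heat response of each tested locus in the wild type (horizontal) and in the libraries labelled double mutant (vertical), both as differences of log2(FPKM + 1), coloured by which response passed; the dashed line marks equal responses. The 4284 loci called in both lie along that line, and the 3 red diamonds, which are also among the loci called in the double mutant only, lie below it.

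The interaction was smaller than the heat responses it compares. Its median size was 0.26 log2 units, against 0.45 for heat in the wild type and 0.47 for heat in the libraries labelled double mutant, and at the 90th percentile the sizes were 0.76, 1.39 and 1.46. Its estimate exceeded a factor of 2 at 1013 loci (4.99%), whereas the heat response did so at 3941 loci (19.4%) in the wild type and at 4194 (20.7%) in the libraries labelled double mutant. The standard error of the interaction combines 4 group means and is larger than that of a heat response, with a 95% interval that reached, at the median, 0.77 log2 units to either side against 0.55.

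A locus that misses the threshold is not thereby shown to respond alike, so the interval of the interaction was used to count close responses. It lay wholly within a factor of 2 in either direction at 9002 loci (44.3%), and at 1900 (44.4%) of the 4284 loci called in both. At the remaining loci a difference of a factor of 2 lies within the interval, apart from 26 loci whose interval lay wholly beyond it. The share with a close response was 25.01% among the 7266 loci with a mean under 5 FPKM, 55.2% among the 11118 loci from 5 to 50, and 54.5% among the 1921 loci at 50 or more. Without both replicate 1 libraries labelled double mutant, 6074 of 19938 tested loci had a close response. Heated libraries lay apart from controls without overlap at 42.6% of loci in the wild type and at 47.6% in the libraries labelled double mutant. Of all loci, 6014 loci (29.6%) did so in the same direction in both genotypes and 31 (0.153%) in opposite directions, 9 of them up in the wild type.

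Loci called in a single genotype moved the same way in the other, by less. The 1615 loci (7.95%) that passed in the wild type alone hold 727 that rose, with a median of 1.06 log2 units there and 0.50 in the libraries labelled double mutant, and 888 that fell, with medians of -0.83 and -0.43. The 2140 loci (10.5%) that passed in the libraries labelled double mutant alone hold 1126 that rose, with a median of 0.87 there and 0.44 in the wild type, and 1014 that fell, with medians of -0.97 and -0.49. The sign of the estimate was the same in both genotypes at 93.3% to 95.5% of the loci in these 4 classes. A smaller median in the genotype that did not pass is what the choice of the class makes, so nothing is read from it. The test of the difference itself, the interaction, passed at 3 of these loci, each kept by the filter only through its high dm_29C libraries. Without both replicate 1 libraries labelled double mutant, 2644 loci passed in the wild type alone and 825 in the libraries labelled double mutant alone.

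The interaction passed at 3 loci (0.0148% of those tested, limma adjusted p = 0.0446 for each), all negative, and at none in the positive direction. Each of the 3 was kept by the filter only through high dm_29C libraries. That choice sets the negative sign, so neither the sign nor the p is read as support for a difference. At an unadjusted p under 0.05 there were 1039 loci (5.12%), 533 positive and 506 negative, where uniform p-values would give 5%. The fourth smallest adjusted p was 0.472. The 3 loci have no gene name in the sources used here and are given by their IDs. LOC_Os04g03050 is named by the rule for loci that pass, while LOC_Os02g36830 and LOC_Os10g20890, with group means under 10 FPKM, were named after their values were seen.

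LOC_Os04g03050 stood at 10.52, 15.36 and 10.02 FPKM in dm_29C and at 0.09, 0.76 and 0.10 in dm_45C. In the wild type it stood at 0.87, 1.40 and 0.31 without heat and at 0.62, 1.08 and 0.37 with heat. The dm_29C libraries were thus high and the other 9 low, with no overlap between them. The heat response was -3.31 in the libraries labelled double mutant and -0.12 in the wild type, and the interaction was -3.20 ± 0.42, with an interval from -4.11 to -2.28.

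LOC_Os10g20890 stood at 11.18, 9 and 4.99 FPKM in dm_29C and at 1.19, 1.13 and 0.96 in dm_45C. The wild type libraries stood at 0.11, 0.09 and 0.00 without heat and at 0.41, 0.66 and 0.94 with heat. The wild type libraries rose slightly without overlap and the libraries labelled double mutant fell without overlap, so that dm_45C and WT_45C came close to each other. The interaction was -2.74 ± 0.37, with an interval from -3.55 to -1.93. The wild type response of 0.64 did not pass (adjusted p = 0.0880).

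LOC_Os02g36830 is listed at 0 in all 6 wild type libraries. It stood at 3.77, 3.33 and 3.57 FPKM in dm_29C and at 0.00, 0.00 and 0.06 in dm_45C, so it was kept by the filter through the dm_29C libraries alone. The interaction was -2.16 ± 0.27, with an interval from -2.75 to -1.56, a value that the added 1 FPKM sets in large part. At all 3 loci replicate 1 of dm_29C was as high as its group mates, although GRP162 was not low in that library.

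At each of the 3 loci the filter on low values was passed only because the dm_29C libraries are high, so their level there had to differ and is given without a test. The negative interaction rests on the same level, so its p is no separate support. The difference of dm_29C from WT_29C was 2.82 log2 units at LOC_Os04g03050, 3.08 at LOC_Os10g20890 and 2.19 at LOC_Os02g36830. At 45 °C the same differences were -0.38, 0.34 and 0.03. Over all loci the genotypes differed at 49 loci at 29 °C (0.241%), with 40 higher (0.197%) and 9 lower (0.0443%) in dm_29C, and at 4 loci at 45 °C (0.0197%), with 3 higher (0.0148%) and 1 lower (0.00492%) in dm_45C. With a library left out these counts ran from 8 higher (without dm_29C replicate 2) to 53 and from 0 to 11 lower at 29 °C, and from 1 to 30 higher and 0 to 14 lower at 45 °C, where the 30 and 14 are without dm_45C replicate 3. With the replicate block they were 1 higher and 0 lower at 45 °C. These comparisons share their libraries with the interaction and are no separate support for it.

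The calls at these 3 loci lay near the threshold. LOC_Os04g03050 lost its call in 16 of 24 alternative settings, over which its adjusted p ran from 0.00830 to 0.690. LOC_Os10g20890 lost it in 18 of 23 (adjusted p from 0.0186 to 0.390) and LOC_Os02g36830 in 11 of 19 (adjusted p from 6.20e-05 to 0.610). Leaving out any single library other than dm_29C replicate 3, dm_45C replicate 2 or dm_45C replicate 3 left 0 called loci. Without dm_29C replicate 3 the locus LOC_Os10g20890 alone passed, without dm_45C replicate 2 there were 11 loci with these 3 among them, and without dm_45C replicate 3 there were 3 other loci. Without both replicate 1 libraries labelled double mutant the count was 0, and with the replicate number as a block it was 1, at LOC_Os04g03050. The direction stayed negative at all 3 loci in every setting that could test them. With the dm_29C libraries alone high, that sign was set beforehand, so nothing is read from it.

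**Figure D2:**
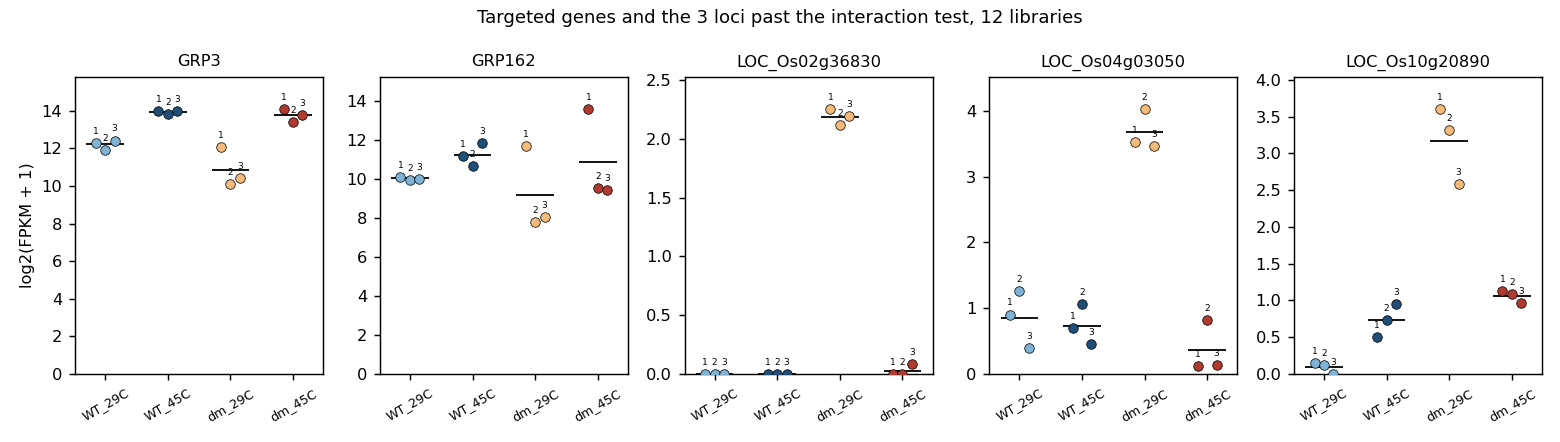
Level of GRP3, GRP162 and the 3 loci past the interaction test as log2(FPKM + 1) in each of the 12 libraries; numbers are replicates and bars are group means. Replicate 1 of dm_29C and dm_45C stands above the others for GRP162, and the dm_29C libraries alone are high for the 3 loci.

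**Figure D3:**
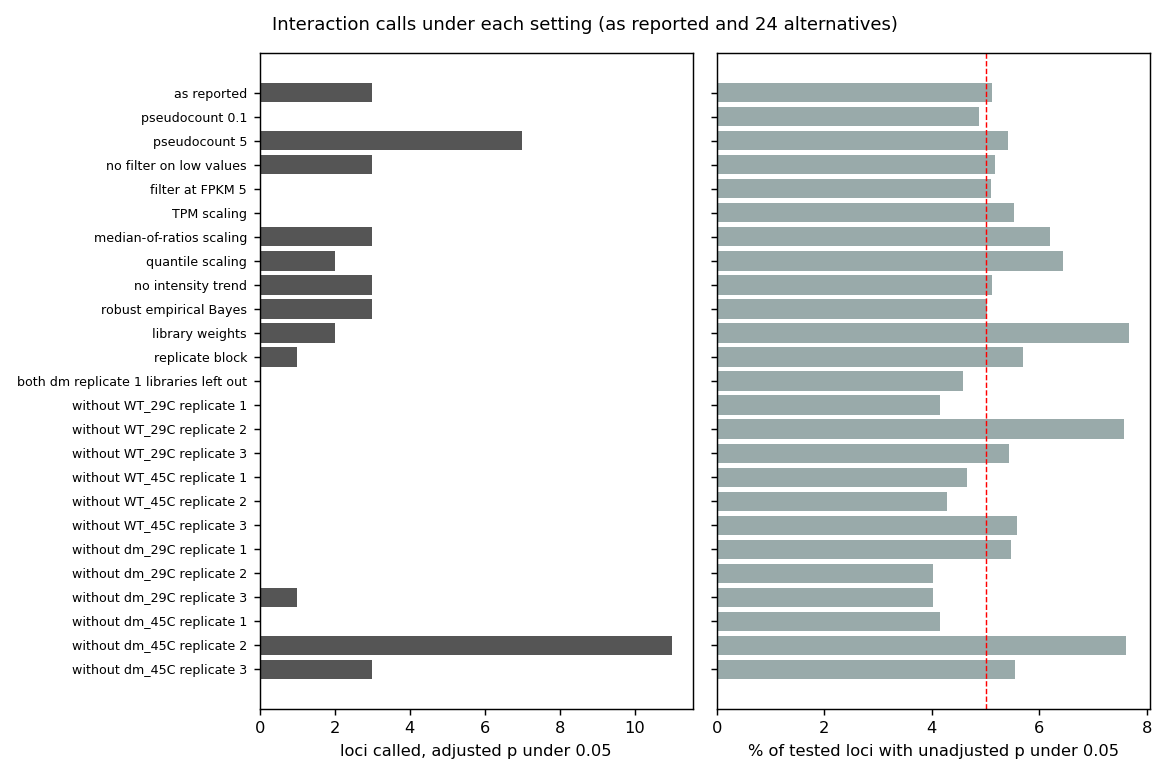
Number of loci past the interaction test (left) and percentage of tested loci with an unadjusted p under 0.05 (right, with a dashed line at 5%) as reported and under 24 alternative settings. The count runs from 0 to 11, with the highest value without dm_45C replicate 2, and the percentage runs from 4.03% to 7.66%.

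The 6 loci called in opposite directions did not pass the interaction test, with adjusted p from 0.472 to 0.474, and were named after their values were seen. LOC_Os06g23430 had the widest difference among them. It stood at 33.64, 24.71 and 29.28 FPKM in WT_29C, at 9.78, 11.18 and 10.26 in WT_45C, at 9.27, 11.83 and 10.62 in dm_29C and at 26.32, 11.19 and 39.00 in dm_45C. The wild type fell without overlap and the libraries labelled double mutant rose, with dm_45C replicate 2 inside the dm_29C range. Its interaction was 2.44 ± 0.46, with an interval from 1.44 to 3.44, and without dm_45C replicate 2 it was 2.92 and passed (limma adjusted p = 0.00270). That was the only 1 of 24 alternative settings in which it passed, and its limma adjusted p reached 0.938 in others. The heat call in the libraries labelled double mutant was lost in 7 of 24 settings, among them the removal of any dm_29C library.

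LOC_Os04g41500 showed the same pattern with little spread, at 35.82, 44.04 and 37.02 FPKM in WT_29C, 26.89, 27.03 and 27.12 in WT_45C, 26.09, 26.16 and 24.97 in dm_29C and 32.61, 33.09 and 44.58 in dm_45C. Neither genotype's heated libraries overlapped their controls, and the interaction was 0.99 ± 0.22. LOC_Os03g44040 and LOC_Os06g50715 also fell in the wild type and rose in the libraries labelled double mutant, with interactions of 1.98 and 1.35. Both are low, with no library above 3.52 and 2.07 FPKM. Of 23 settings, the rise was lost in 13 and 7 and the wild type fall in 4 and 5. LOC_Os03g05870 rose in the wild type from 4.41, 8.70 and 4.73 to 11.25, 18.39 and 8.36 FPKM and fell in the libraries labelled double mutant from 15.03, 12.92 and 10.03 to 4.24, 5.85 and 6.34, with an interaction of -2.04. LOC_Os06g39752 did likewise at lower levels, with an interaction of -1.71. The heat calls of LOC_Os04g41500, LOC_Os03g05870 and LOC_Os06g39752 were each lost in 3 to 7 settings.

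The listed genes of known pathways, 178 of which were tested, hold none that passed the interaction test. Their names were paired with the locus IDs from general knowledge of rice genes, without a source table, and those of MBF1c, LUX, PsaL, PsaE, CRT and CNX, among others, have no counterpart in the RefSeq gene table. For each list the counts of heat calls in each genotype and the median interaction are given, to be read against the shares over all loci (13.3% up and 15.8% down in the wild type, 15.3% up and 16.4% down in the libraries labelled double mutant) and against the median of 0.03 over all loci. The interaction was positive at 10849 and negative at 9456 loci, and over all settings the median ran from -0.04 without WT_29C replicate 3 to 0.10 without WT_29C replicate 2.

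The small HSPs, which keep unfolded proteins soluble, rose in both genotypes at 10 of 10 genes (all loci: 9.71%). HSP26.7, a plastid member, stood at 0.42, 1.14 and 0.87 FPKM in WT_29C and at 355.78, 437.22 and 70.33 in WT_45C, against 0.80, 0.72 and 1.23 in dm_29C and 232.93, 248.00 and 904.84 in dm_45C. Heated and control libraries were far apart in both genotypes, while WT_45C replicate 3 was the lowest and dm_45C replicate 3 the highest heated library. The responses were 6.97 and 7.62 log2 units, and the interaction of 0.65 ± 0.87 had an interval from -1.23 to 2.53.

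HSP16.9A, a cytosolic small HSP, stood at 1.77, 1.76 and 1.96 FPKM in WT_29C and at 477.51, 712.86 and 107.42 in WT_45C, against 2.66, 2.73 and 2.29 in dm_29C and 152.62, 602.19 and 391.44 in dm_45C. It responded by 6.88 and 6.54 log2 units in the wild type and the libraries labelled double mutant, HSP16.9B by 5.58 and 5.65, HSP17.4 by 4.82 and 4.91 and HSP17.9A by 4.96 and 4.24. HSP23.2 responded by 5.28 and 4.65 and HSP18.1 by 4.69 and 3.80. The median response was 4.89 in the wild type and 4.45 in the libraries labelled double mutant, and the median interaction was -0.46, between -0.96 and 0.65 for single genes. That median was 0.05 without WT_45C replicate 2 and 0.02 without dm_45C replicate 1. The interval lay within a factor of 2 at none of the 10 genes, so larger differences in either direction were not resolved.

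The larger chaperones also rose in both genotypes. The HSP70 gene at LOC_Os11g47760 stood at 331.25, 497.67 and 531.95 FPKM in WT_29C and at 1646.76, 1536.92 and 1293.13 in WT_45C, against 276.31, 576.29 and 760.03 in dm_29C and 1795.61, 1374.31 and 1740.01 in dm_45C. Its responses were 1.74 and 1.71, with an interaction of -0.02 ± 0.49. The plastid HSP70CP1 rose by 1.001 and 1.37, the cytosolic HSP90 gene HSP81-2 by 1.03 and 1.14 with an interval of the interaction from -0.64 to 0.85, and the plastid HSP90 gene by 1.38 and 1.29. In the libraries labelled double mutant that last call was lost in 7 of 24 settings, among them the removal of any dm_29C library, of dm_45C replicate 1 or of dm_45C replicate 3, and heated and control libraries overlapped, with 17.37 FPKM in dm_45C replicate 2 against 14.73 to 19.13 in dm_29C. In the wild type it was lost without WT_29C replicate 1 or 2 or WT_45C replicate 1. The third HSP90 gene, HSP81-1, named after its values were seen, passed in neither genotype, with 1.92 FPKM in WT_29C replicate 2 against 40.68 and 38.67 in its group mates.

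Among 7 thermotolerance genes, 5 rose in the wild type (all loci: 13.3%) and 4 in the libraries labelled double mutant (all loci: 15.3%). The interaction was negative at 6, with a median of -0.57 that stayed negative in every setting, between -0.92 and -0.34. MBF1c, a transcriptional coactivator of the heat response, stood at 4.15, 7.24 and 4.51 FPKM in WT_29C and at 113.43, 125.10 and 99.62 in WT_45C, against 6.69, 16.84 and 9.64 in dm_29C and 86.46, 75.79 and 138.30 in dm_45C. It rose without overlap in both, from a wider and partly higher range in dm_29C. The responses were 4.20 and 3.11, and the interaction of -1.09 ± 0.43 had an unadjusted p of 0.0260 and an adjusted p of 0.932.

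HSP101, the disaggregase needed for acquired thermotolerance, rose by 3.99 and 3.32 log2 units, from 0.88, 0.37 and 1.20 to 30.90, 38.56 and 17.06 FPKM in the wild type and from 0.57, 1.71 and 1.82 to 14.25, 27.31 and 26.73 in the libraries labelled double mutant. Its interaction was -0.67 ± 0.50, with an interval from -1.74 to 0.40. CLPB-C, a plastid relative, rose by 1.20 and 1.34 with an interaction of 0.14. HSA32, which prolongs acquired thermotolerance, rose by 2.48 and 1.91, and CLPB-M, a mitochondrial relative of HSP101, rose by 1.47 in the wild type while its value of 0.69 in the libraries labelled double mutant did not pass. The last pair of genes was named after their values were seen.

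Of 21 tested Hsf genes, 6 rose and 4 fell in the wild type (all loci: 13.3% and 15.8%). In the libraries labelled double mutant 7 rose and 3 fell (all loci: 15.3% and 16.4%). Among the 21, 9 passed in both genotypes in the same direction (all loci: 21.1%). HsfB2c, a class B factor, rose by 2.25 and 1.81, and HsfA2e, the other of the most abundant pair, stood at responses of -0.50 and -0.51 that did not pass. The median interaction was -0.25, negative at 14 genes. HsfC1b, a class C factor, stood at 11.84, 6.76 and 16.21 FPKM in WT_29C and at 41.90, 30.65 and 25.35 in WT_45C, against 10.57, 5.48 and 8.49 in dm_29C and 57.46, 41.73 and 55.27 in dm_45C. It rose without overlap in both genotypes, and highest in dm_45C, where 2 of its libraries lay above every WT_45C library and the third, at 41.73, just below the highest. The responses were 1.46 and 2.54, and the interaction of 1.08 ± 0.43 had an unadjusted p of 0.0254 and an adjusted p of 0.932.

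The circadian clock genes had a positive interaction at 9 of 10 members, with a median of 0.41 that ran from 0.27 to 0.60 over all settings. Of the 10, 5 rose in the wild type (all loci: 13.3%), and 6 rose and 1 fell in the libraries labelled double mutant (all loci: 15.3% and 16.4%). LHY, a morning repressor, was the member with a negative interaction. It stood at 103.15, 147.37 and 132.15 FPKM in WT_29C and at 70.14, 158.54 and 38.79 in WT_45C, against 126.66, 200.04 and 128.24 in dm_29C and 9.11, 65.97 and 21.81 in dm_45C. It fell without overlap in the libraries labelled double mutant alone, by 2.58 log2 units (adjusted p = 0.00551) against a wild type value of -0.73 (adjusted p = 0.378), and the interaction was -1.85 ± 0.83 with an interval from -3.65 to -0.06.

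PRR1, the rice counterpart of the Arabidopsis evening regulator TOC1, stood at 7.06, 6.10 and 10.09 FPKM in WT_29C and at 24.90, 14.42 and 13.40 in WT_45C, against 8.69, 8.03 and 5.91 in dm_29C and 49.82, 23.24 and 42.38 in dm_45C. LUX, a subunit of the evening complex, stood at 20.21, 6.86 and 16.41 in WT_29C and at 71.84, 35.48 and 84.93 in WT_45C, against 11.46, 10.86 and 10.01 in dm_29C and 175.83, 82.24 and 145.35 in dm_45C. Both genes rose without overlap in both genotypes and had their highest libraries in dm_45C, although a dm_45C library of each lay within the WT_45C range. The interaction was 1.095 ± 0.43 for PRR1 (unadjusted p = 0.0248, adjusted p = 0.932) and 1.36 ± 0.56 for LUX (unadjusted p = 0.0309, adjusted p = 0.948).

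GI, a clock-linked protein of flowering control, was named after its values were seen. It stood at 6.64, 17.05 and 3.03 FPKM in WT_45C and at 22.57, 12.55 and 26.36 in dm_45C, over controls from 1.75 to 5.57 in both genotypes, and had an interaction of 1.53 ± 0.67. The wild type response of 0.73 did not pass and that of 2.26 in the libraries labelled double mutant did, while the interaction itself had an adjusted p of 0.952. Transcripts of these genes cycle through the day, and the part of sampling time in their values was not tested.

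**Figure D4:**
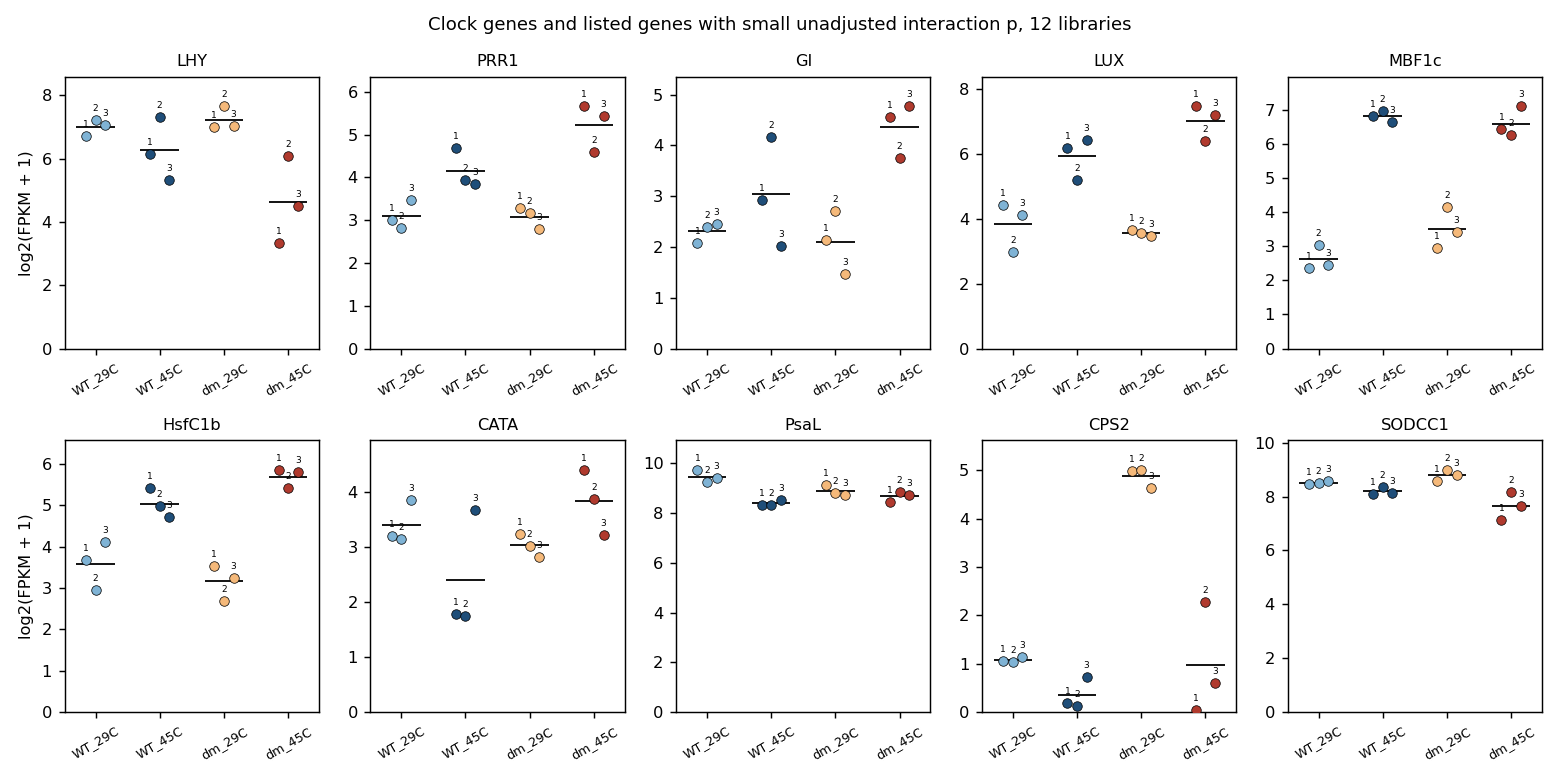
Level of 10 listed genes as log2(FPKM + 1) in each of the 12 libraries; numbers are replicates and bars are group means. LHY has its lowest and PRR1, GI and LUX their highest libraries in dm_45C, and CPS2 is high in the 3 dm_29C libraries alone.

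Of 17 genes of abscisic acid and dehydration, 7 rose in the wild type (all loci: 13.3%) and 9 in the libraries labelled double mutant (all loci: 15.3%). Of these, 6 rose in both (all loci: 9.71%), and none of the 17 fell. The list had a median interaction of 0.01 that was -0.04 under median-of-ratios scaling. LEA3, a protein that protects cells against drying, stood at 0.05, 0.17 and 0.09 FPKM in WT_29C and at 134.95, 202.12 and 41.09 in WT_45C, against 0.24, 0.62 and 0.34 in dm_29C and 19.54, 58.19 and 133.26 in dm_45C. Control and heated libraries were far apart in both, with wide spread among the heated ones. The responses were 6.58 and 5.30, and the interaction of -1.28 ± 0.86 had an interval from -3.14 to 0.58. The dehydrin RAB16B rose by 3.76 and 3.36.

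Of the most abundant members of this list, SNAC1, a stress NAC factor, rose by 1.79 in the wild type, while its value of 1.35 in the libraries labelled double mutant did not pass, and NAC6 passed in neither. DREB1A, a factor of cold and drought responses, stood at 0.13, 1.05 and 1.74 FPKM in WT_29C and at 1.23, 1.23 and 1.33 in WT_45C, against 0.59, 0.09 and 0.52 in dm_29C and 3.75, 1.57 and 7.94 in dm_45C. It rose without overlap in the libraries labelled double mutant, and the wild type groups overlapped. The interaction was 1.501 ± 0.59, with an unadjusted p of 0.0246 and an adjusted p of 0.932.

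The 22 genes of light harvesting and photosystems had a positive interaction at 16, with a median of 0.46 that ran from 0.12 to 0.55 over all settings. In the wild type 5 rose and 6 fell (all loci: 13.3% and 15.8%), and in the libraries labelled double mutant 5 rose and 2 fell (all loci: 15.3% and 16.4%). PsaL, a subunit of photosystem I, stood at 863.51, 609.89 and 674.57 FPKM in WT_29C and at 318.54, 323.55 and 370.80 in WT_45C, against 553.07, 447.40 and 425.29 in dm_29C and 348.78, 462.07 and 421.01 in dm_45C. The wild type fell without overlap from a higher start, and the libraries labelled double mutant overlapped. The responses were -1.07 (adjusted p = 0.00262) and -0.21 (adjusted p = 0.475), and the interaction of 0.86 ± 0.30 had an unadjusted p of 0.0129 and an adjusted p of 0.911.

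PsaE, another photosystem I subunit, fell in the wild type from 659.13, 467.40 and 378.54 to 280.62, 300.61 and 278.99 FPKM, against 553.38, 426.71 and 361.17 in dm_29C and 407.77, 547.84 and 454.98 in dm_45C. The wild type call of PsaE was lost in 6 of 24 settings, among them the removal of any WT_45C library, with a limma adjusted p up to 0.116. Its interaction was 0.85 ± 0.34 (unadjusted p = 0.0270, adjusted p = 0.932). PetC and PetE, which carry electrons between the photosystems, were the most abundant of the list, and their interactions were -0.06 and 0.03. PetE fell in both genotypes, with responses of -1.07 and -1.04, calls that were lost in 7 and 8 of 24 settings.

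**Figure D5:**
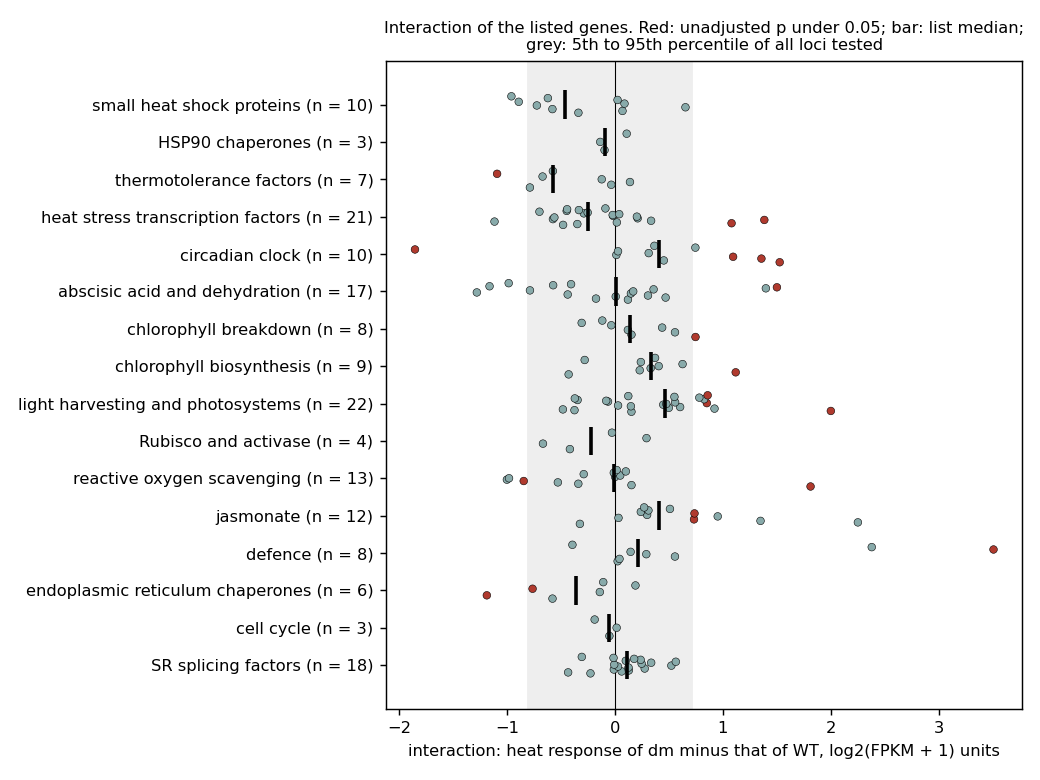
Interaction of each tested gene in the lists with 3 or more tested genes, in log2(FPKM + 1) units, with a bar at the list median and a grey band from the 5th to the 95th percentile of all loci tested. Medians of light harvesting (0.46), clock (0.41) and jasmonate (0.41) genes, among others, lie to the right of 0. Those of thermotolerance genes (-0.57), small HSPs (-0.46), endoplasmic reticulum chaperones (-0.36) and Hsfs (-0.25), among others, lie to the left. These medians are smaller in size than the 90th percentile over single loci (0.76), and every listed gene is short of the adjusted threshold.

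Of 8 chlorophyll breakdown genes, 4 rose in the wild type (all loci: 13.3%) and 5 in the libraries labelled double mutant (all loci: 15.3%). Their median interaction of 0.14 was -0.02 without WT_45C replicate 3 or without dm_45C replicate 3. NYC1, the chlorophyll b reductase that starts breakdown of the antenna, stood at 85.53, 55.17 and 64.65 FPKM in WT_29C and at 136.16, 99.69 and 93.92 in WT_45C, against 58.59, 44.91 and 51.12 in dm_29C and 139.34, 107.55 and 180.71 in dm_45C. It rose without overlap in both genotypes, by 0.68 and 1.43, and the interaction of 0.75 ± 0.33 had an adjusted p of 0.952. The wild type call of NYC1 was lost in 11 of 24 settings. NYC4, a thylakoid protein of the same pathway, passed in neither genotype, with an interaction of -0.03.

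Of 9 chlorophyll biosynthesis genes, 1 rose and 3 fell in the wild type (all loci: 13.3% and 15.8%). In the libraries labelled double mutant 1 rose (all loci: 15.3%). The median interaction was 0.33, positive at 7. YGL1, chlorophyll synthase, fell in the wild type by 1.15 log2 units, while its value of -0.52 in the libraries labelled double mutant did not pass. Its interval of the interaction ran from -0.09 to 1.35. CRD1, a cyclase of the same pathway, passed in neither. The Rubisco small subunits RBCS2 and RBCS1, of the carbon-fixing enzyme, had responses of -1.38 and -1.37 in the wild type and -1.08 and -2.04 in the libraries labelled double mutant, of which that of RBCS1 in the wild type did not pass. Their interactions were 0.29 and -0.67, and the median of the 4 Rubisco and activase genes, -0.22, was 0.27 without both replicate 1 libraries labelled double mutant. The heat call of RBCS2 was lost in 4 of 24 settings in the wild type and in 14 in the libraries labelled double mutant.

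Because whole seedlings were sampled, markers of their parts are given beside these lists. The root silicon channel gene Lsi1 stood between 24.35 and 38.60 FPKM in WT_29C and between 1.36 and 2.14 in WT_45C, against 36.34 to 52.62 in dm_29C and 2.13 to 6.45 in dm_45C. It fell in both genotypes, with responses of -3.49 and -3.05 and an interaction of 0.44. The other root marker, Lsi2, never exceeded 0.03 FPKM. The seed glutelin gene GLUA2 stood between 5.31 and 7.68 FPKM in WT_29C and between 2.19 and 4.97 in WT_45C, against 5.37 to 5.82 in dm_29C and 3.87 to 5.82 in dm_45C. It fell without overlap in the wild type (-0.83, limma adjusted p = 0.0236), a call lost in 5 of 24 settings (library weights and the removal of replicate 2 or 3 of either wild type group). The value of -0.24 in the libraries labelled double mutant did not pass. The interaction of GLUA2 was 0.59 (limma adjusted p = 0.974), with an interval from -0.16 to 1.35. The summed FPKM of the 22 light harvesting genes ran from 8477 to 14142 in WT_29C, from 6417 to 7580 in WT_45C, from 8257 to 10476 in dm_29C and from 5627 to 10226 in dm_45C, so the groups of the libraries labelled double mutant overlapped and those of the wild type did not. The part of unequal tissue shares in the photosynthesis results was not tested.

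Of 13 genes that remove reactive oxygen, 7 rose in the wild type (all loci: 13.3%). In the libraries labelled double mutant 7 rose and 1 fell (all loci: 15.3% and 16.4%). The median interaction was -0.01 (0.00 under TPM scaling). SODCC2, a cytosolic superoxide dismutase, rose by 2.37 and 2.08, whereas CATC, the most abundant catalase, passed in neither. CATA, another catalase, stood at 8.26, 7.89 and 13.50 FPKM in WT_29C and at 2.45, 2.36 and 11.73 in WT_45C, against 8.50, 7.15 and 6.08 in dm_29C and 20.34, 13.71 and 8.37 in dm_45C. WT_45C replicate 3 stood apart from its group mates, and heated and control libraries overlapped in both genotypes. Neither response passed, at -1.01 and 0.81, and the interaction of 1.81 ± 0.64 had an unadjusted p of 0.0149 and an adjusted p of 0.917.

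SODCC1, another cytosolic superoxide dismutase, stood at 356.00, 358.80 and 379.05 FPKM in WT_29C and at 272.14, 329.46 and 283.34 in WT_45C, against 380.25, 514.01 and 449.22 in dm_29C and 137.67, 287.57 and 199.27 in dm_45C. Heated libraries lay below controls without overlap in both genotypes. The response passed in the libraries labelled double mutant (-1.15, adjusted p = 0.00364) and not in the wild type (-0.31, adjusted p = 0.370), and the interaction of -0.85 ± 0.35 had an unadjusted p of 0.0299 and an adjusted p of 0.943.

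Of 12 jasmonate genes, 5 fell in the wild type, and 4 fell and 1 rose in the libraries labelled double mutant, against 15.8% down of all loci in the former and 16.4% down and 15.3% up in the latter. The interaction was positive at 11 of them, with a median of 0.41 that ran from 0.25 to 0.79 over all settings. COI1a, a jasmonate receptor, fell with responses of -0.86 and -1.18 and was the member with a negative interaction, while its relative COI1b passed in neither. The gene that rose in the libraries labelled double mutant was JAZ9, a repressor of jasmonate responses, named after its values were seen. It stood at 0.14, 14.38 and 0.00 FPKM in WT_29C and at 1.51, 2.64 and 1.38 in WT_45C, against 0.00, 0.11 and 0.15 in dm_29C and 3.43, 4.66 and 5.82 in dm_45C. WT_29C replicate 2 alone was high among the controls, and the interaction of 2.25 ± 1.08 had an interval from -0.08 to 4.58.

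The defence list has a median interaction of 0.22, which ran from -0.20 without dm_45C replicate 3 to 0.95 without WT_45C replicate 3 and was 0.89 with library weights and -0.01 without WT_45C replicate 1. Of 8 genes none passed in the wild type (all loci: 13.3% up and 15.8% down). In the libraries labelled double mutant 1 rose, a share near that of all loci (15.3%). There, 5 rose with library weights and 0 without dm_29C replicate 1, without dm_45C replicate 3 or without both replicate 1 libraries. WRKY53 and WRKY45, factors of defence against pathogens and the most abundant of the list, had responses of 0.98 and 0.95 in the wild type and 1.13 and 1.25 in the libraries labelled double mutant, and none passed. The gene that rose was WRKY76, a repressor of defence, named after its values were seen. It stood at 0.90, 27.46 and 1.66 FPKM in WT_29C and at 1.38, 2.05 and 32.68 in WT_45C, against 0.27, 0.93 and 0.55 in dm_29C and 14.15, 10.58 and 53.29 in dm_45C. A single library in each wild type group was high, and the interaction of 3.51 ± 1.51 had an adjusted p of 0.952.

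The diterpenoid phytoalexin list, of enzymes that make antimicrobial compounds, was chosen after members had been seen to differ. Of its 9 genes only CPS2, an ent-copalyl diphosphate synthase at the entry of the pathway, was tested, and the other 8 did not reach the filter, with a highest single value of 9.24 FPKM at MAS. CPS2 stood at 30.54, 31.41 and 23.91 FPKM in dm_29C and at 0.02, 3.83 and 0.51 in dm_45C. The wild type libraries stood at 1.07, 1.05 and 1.20 without heat and at 0.14, 0.08 and 0.66 with heat. The dm_29C libraries, replicate 1 among them, were high and the other 9 low, and heated libraries lay below controls without overlap in both genotypes.

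The responses of CPS2 were -3.91 in the libraries labelled double mutant (adjusted p = 6.23e-05) and -0.73 in the wild type (adjusted p = 0.231). Its interaction of -3.18 ± 0.62, with an interval from -4.52 to -1.85, had the smallest unadjusted p of the listed genes (0.000204) and an adjusted p of 0.472. It passed without dm_45C replicate 2, at -3.84 (adjusted p = 0.00270), and with a pseudocount of 5, at -2.21 (adjusted p = 0.00830), within a range of adjusted p from 0.00270 to 0.982 over all settings. The difference of dm_29C from WT_29C was 3.80 log2 units, given without a test because the list was chosen after members had been seen to differ. The p-values of the heat response and the interaction of CPS2 rest on the same dm_29C libraries and on the same choice of list. They are therefore not read as support for a difference, in any setting. The difference of 0.62 at 45 °C did not pass.

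Endoplasmic reticulum chaperones had a negative interaction at 5 of 6 genes, with a median of -0.36 that ran from -0.59 to -0.21 over all settings. In the wild type 3 rose (all loci: 13.3%), and in the libraries labelled double mutant 1 did (all loci: 15.3%). PDIL1-1, a protein disulfide isomerase, rose in both, by 1.01 and 0.90. The calcium-binding chaperone CRT stood at 88.68, 66.05 and 90.00 FPKM in WT_29C and at 90.48, 92.94 and 133.22 in WT_45C, against 82.91, 94.89 and 74.70 in dm_29C and 48.47, 85.71 and 60.22 in dm_45C. Neither response passed, and the interaction was -0.76 ± 0.33 (unadjusted p = 0.0364, adjusted p = 0.952). CNX, its membrane-bound relative, named after its values were seen, rose by 1.48 in the wild type and stood at 0.29 in the libraries labelled double mutant, which did not pass, and had an interaction of -1.19 ± 0.50.

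Genes of dividing cells and of splicing close the lists. Of 3 tested cell cycle genes, 2 fell in both genotypes (all loci: 11.4%). PCNA, the sliding clamp of DNA replication, had responses of -0.46 and -0.45 that did not pass, and CDKB1-1, a kinase of mitosis, fell with responses of -1.13 and -1.18, with interactions of 0.02 and -0.05. The CDKB1-1 call was lost in 4 of 24 settings in each genotype. Among 18 SR splicing factors, 1 rose and 2 fell in the wild type and 3 rose in the libraries labelled double mutant, shares near or below those of all loci (13.3%, 15.8% and 15.3%). SR40 rose by 1.67 and 1.24, and RSZ23, the most abundant, had responses of -0.06 and -0.07 and an interval of the interaction from -0.49 to 0.47. The interval lay within a factor of 2 at 12 of the 18 (66.7%), against 44.3% of all loci, and the median interaction was 0.11.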

How the data were processed

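The deposited table holds FPKM per locus and library, per the file headers, for 12 libraries in 4 groups of 3. StringTie 1.3.4d, HISAT2 2.0.4, cutadapt 1.9, edgeR, DESeq2 and UMI-tools are named in the submitters' processing notes, with no word on which of them made these values. No genome build is named in the sources used here. The libraries sum to 558435 to 599861 FPKM, with 22101 to 25116 loci above 0. Whole reads could not be recovered from FPKM, so depth is unknown, no counting interval is given, and low loci are the least certain. Median within-group standard deviations of log2(FPKM + 1) ran from 0.222 to 0.292, and no pair of libraries was identical.

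From the deposited FPKM, log2(FPKM + 1) was computed for loci that reached 1 FPKM in 3 or more libraries, which understates changes of low loci. All 12 libraries entered 1 limma fit of 4 group means with an intensity trend, in R 4.3.3 with limma 3.58.1 and statmod 1.5.0, with two-sided p-values adjusted by Benjamini-Hochberg over all tested loci and a threshold of 0.05. The comparisons were the interaction, heat in each genotype and the genotypes at each temperature. The scripts were tested on simulated data. Alternatives changed the pseudocount, filter, scaling, spread model, replicate block and libraries used. Plots were drawn with matplotlib 3.10.9, numpy 2.4.6 and pandas 2.3.3 under Python 3.11.15.

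Members, lists and tests were chosen with earlier results of these data known. Named genes are GRP3 and GRP162, loci past the interaction test with a group mean FPKM of 10 or more, the pair of most abundant genes per list, the 10 listed genes with the largest shared heat response and the 10 with the smallest unadjusted interaction p. The names of listed genes were paired with loci by hand from general knowledge, without a source table. Of 201 pairs of name and locus, 124 names are on the same chromosome in the RefSeq gene table (assembly ASM3414082v1), 2 on another and dropped, and 75 not in it, and none of the locus IDs matched it directly. GRP3 and GRP162 are close relatives, and nothing says how reads that match both were assigned.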

Additional observations from a re-analysis of the deposited data

Results flagged for a closer look

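The 3 loci that passed the interaction test are LOC_Os04g03050, with an interaction of -3.20 log2 units, LOC_Os10g20890, with -2.74, and LOC_Os02g36830, with -2.16 (limma adjusted p = 0.0446 for each). At each of them the 3 dm_29C libraries were the only high ones of 12, and the locus entered the test only through them. The negative sign and the p rest on those libraries and are not read as support for a difference. LOC_Os02g36830 is listed at 0 in all 6 wild type libraries.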

How the results depend on the processing

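The 3 interaction calls lie near the threshold and depended on the setting. Negative calls numbered 0 with a pseudocount of 0.1, with a filter at 5 FPKM, under TPM scaling and without both replicate 1 libraries labelled double mutant, 1 with the replicate block and 7 with a pseudocount of 5, and without a filter there was 1 positive call. Leaving out each library gave 0 to 9 negative and 0 to 2 positive calls. Loci with an interval within a factor of 2 numbered 16464 with a pseudocount of 5, which compresses low values, 15707 without a filter, which adds loci near 0, and 7059 to 8165 with a library left out. Without both replicate 1 libraries labelled double mutant, 1692 loci fell with heat in that line, 2644 passed in the wild type alone, 825 in the libraries labelled double mutant alone and 1 in opposite directions, and with a filter at 5 FPKM 3 passed in opposite directions. Of these settings, those with libraries left out test fewer libraries, and the filter at 5 FPKM tests fewer loci. The setting without a filter tests more loci. Both pseudocounts, TPM scaling and the replicate block keep the same 20305 loci and all 12 libraries. What made the counts move was not tested.

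With a library left out, wild type loci that rose ranged from 1781 to 2765 and that fell from 2245 to 3363, those of the libraries labelled double mutant from 2076 to 3203 and from 2328 to 3621, loci called in both from 3192 to 4285, in the wild type alone from 939 to 2508, in the libraries labelled double mutant alone from 1076 to 2841, and in opposite directions from 1 to 7. The interaction of GRP3 ranged from 0.80 to 1.80 and that of GRP162 from -0.87 to 1.75, without a call. The median interaction over all loci, 0.03, ran from -0.04 to 0.10 and was negative with median-of-ratios scaling, with library weights and without WT_29C replicate 3, WT_45C replicate 3, dm_29C replicate 3 or dm_45C replicate 2.

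Loci higher in dm_29C than in WT_29C numbered 19 with a pseudocount of 0.1, 10 with a filter at 5 FPKM and 25 without both replicate 1 libraries labelled double mutant (8 to 53 with a library left out), and lower ones 5 with a pseudocount of 0.1 and 3 with a filter at 5 FPKM (0 to 11). Loci higher in dm_45C numbered 5 without a filter or without the intensity trend, 1 with the replicate block and 7 without both replicate 1 libraries (1 to 30). Lower ones numbered 0 with a pseudocount of 0.1, without a filter, with a filter at 5 FPKM, under TPM scaling and with the block, 3 with a pseudocount of 5, and 2 with median-of-ratios scaling, no trend, library weights or without both replicate 1 libraries (0 to 14).

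Replicate numbers paired the samples in part, and the main fit leaves this pairing out. Of 12 libraries, 11 were closest to a library of their own number in another group. Of 18 same-number correlations of deviations, 6 exceeded 0.1, within a range from -0.12 to 0.29. Between WT_45C and dm_45C all 3 exceeded 0.1 (0.106, 0.293 and 0.141), so at 45 °C the counts with the block, 1 higher and 0 lower, are the paired values. The replicate block kept the call at LOC_Os04g03050 (adjusted p = 0.00869) and lost it at the other two loci (adjusted p = 0.142 for each). Among the named genes, heat calls lost in part of the 24 settings include RBCS2 (14) and PetE (8) in the libraries labelled double mutant. In the wild type they include NYC1 (11), PetE (7), PsaE (6) and RBCS2 (4). The call of CDKB1-1 was lost in 4 settings in each genotype. Unknown depth limits what low loci can show.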
